A study of Homo sapiens with 8 samples.

Results

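In the deposited tables, 1461 transcripts annotated as targets of nonsense-mediated decay carried dense ribosome footprints downstream of their annotated stop codon. They were chosen from 82586 transcripts, of which 17577 had that annotation. A transcript was kept when its coding density averaged at least 10 RPKM (reads scaled by region length and library total) over all 8 libraries, which 2522 decay targets did. In addition, the density of its first extended region, read here as the stretch after the annotated stop codon, had to reach at least 0.10 of the coding density over the 4 HEK293T libraries, which left 57.9% of those 2522. This ratio of first extended to coding density is called the ratio below. Because HEK293T libraries chose the transcripts, their ratios there are a description, and the same ratio in transgenic cells was tested.

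The libraries came from HEK293T cells, a human embryonic kidney line, and from transgenic HEK293T cells that carry Mb pyltRNA by stable transfection. Each line was grown without NAEK and with 1 mM NAEK, with 2 libraries per group, and the labels do not say whether the transgenic cells are 1 clone. NAEK is an azide-bearing lysine derivative that a pyrrolysyl-tRNA synthetase loads onto its tRNA, and the loaded tRNA decodes the amber stop codon UAG as an amino acid. The synthetase entry stood at 5538 to 5820 RPKM in transgenic and at 7.24 to 11.4 RPKM in HEK293T libraries. The GFP39 reporter entry stood at 3664 and 3761 RPKM in transgenic libraries without NAEK and at 6264 and 6980 RPKM with it. In HEK293T libraries it stood at 8.15 to 21.7 RPKM. Libraries held 12923243 to 20569590 reads.

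Nonsense-mediated decay degrades mRNAs on which a ribosome terminates well upstream of an exon junction, where the factor UPF1 and its partners mark the terminating ribosome's mRNA for destruction. Many genes make such isoforms by alternative splicing, often beside a productive isoform that shares most of its exons. A footprint in a shared exon can therefore belong to either isoform. The tables give transcript identifiers without genes, and no sequence of these transcripts was used here, so which stop codon each one has and which isoforms overlap it are not known here.

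The chosen transcripts were short open reading frames with short extensions. The coding region had a median length of 267 nt (45 to 6978 nt), and the first extended region a median of 45 nt (3 to 1923 nt). In 568 of the 1461, or 38.9%, the first extended region was at most 30 nt long, about the size of a single footprint. Of the first extended regions, 96.6% were whole codons long. Coding density had a median of 18.9 RPKM and ran from 10.04 to 657.5 RPKM. The transcripts held 1.92 to 2.0% of all coding reads of a library and 30.1 to 34.7% of all first extended reads. They were chosen for dense first extended regions, so a larger share of first extended reads was built into the choice. Reads in the first extended region summed to a median of 101 over 8 libraries, from 1 to 18545, and 490 transcripts held at least 200.

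Ratios spanned more than 2 orders of magnitude, and the group medians lay between 0.730 and 0.783. In HEK293T libraries the median ratio was 0.756, the interquartile range ran from 0.372 to 1.45, and the highest was 26.3. By group, the median was 0.749 in HEK293T cells without NAEK and 0.783 with it, and in transgenic cells it was 0.744 without NAEK and 0.730 with it. Medians of single libraries ran from 0.702 to 0.767. Those of transgenic libraries overlapped between 0.702 and 0.760 without NAEK and 0.706 and 0.744 with it, while both HEK293T libraries with NAEK, at 0.754 and 0.767, lay above both transgenic libraries with NAEK. In 559 transcripts (38.3%) footprints were denser after the stop codon than before it in HEK293T cells without NAEK, and in 561 (38.4%) with NAEK. In transgenic cells these were 546 (37.4%) and 537 (36.8%). In 294 transcripts the ratio was above 1 in each of the 8 libraries, 206 of them with at least 200 first extended reads. Ratios of at least 0.10 were kept in all 4 groups by 1268 of the 1461. Below 0.10 stood 49 and 43 transcripts in the HEK293T groups without and with NAEK and 92 and 118 in the transgenic groups, and the choice used the HEK293T values. The smallest library, of transgenic cells with NAEK, also had the most ratios of 0, at 147 against 74 to 119 in the others. The part of depth in these counts was not tested.

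**Figure D1:**
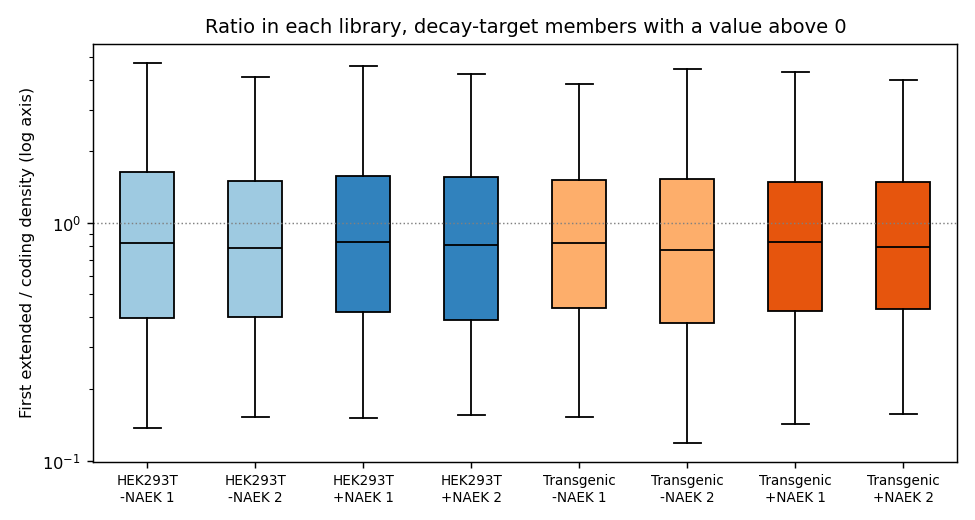
Ratio of first extended to coding density (log axis) in each of the 8 libraries, over the chosen decay targets with a ratio above 0 in that library. Boxes span the interquartile range with the median, and whiskers the 5th to 95th percentile. The 8 medians over all 1461 decay targets lie between 0.702 and 0.767.

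The thresholds fell within thinly covered transcripts. Just inside the ratio threshold lay ENST00000464497 (0.1002), ENST00000523098 (0.1003) and ENST00000559831 (0.102), on 9, 17 and 11 first extended reads over 8 libraries. Just outside lay ENST00000553907 (0.0996), ENST00000519771 (0.0991) and ENST00000605847 (0.0987), on 1, 7 and 33 reads. At the other end, the 5 highest ratios belonged to ENST00000578306 (26.3), ENST00000586146 (15.2), ENST00000633158 (14.7), ENST00000557901 (14.0) and ENST00000566605 (13.4). Their first extended regions were 3, 3, 6, 6 and 15 nt long, shorter than a footprint. They held 112, 172, 685, 672 and 3025 first extended reads over 8 libraries. ENST00000633158 and ENST00000557901 had the same region lengths and 1313 and 1344 coding reads, and are 1 of the near-copy pairs described below. Of the 14 transcripts with a ratio of at least 10, 12 had a first extended region of at most 30 nt.

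Of the 8 transcripts with the most first extended reads, most had long extensions and ratios above 1. ENST00000415933, with a coding region of 363 nt and an extension of 255 nt, had the most reads. Its ratio was 1.12 and 1.33 in the HEK293T libraries without NAEK and 1.08 and 1.34 with it. In transgenic libraries it was 1.18 and 1.27 without NAEK and 1.02 and 1.19 with it. Each pair of groups overlapped, and the NAEK change in transgenic cells was -0.15 on the log2 scale (SE 0.32, limma adjusted p = 0.941).

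ENST00000533495 had a coding region of 228 nt and an extension of 1527 nt that carried 15953 reads. Its ratio was 1.47 and 1.31 in HEK293T cells without NAEK, 1.37 and 1.53 with it. In transgenic cells the ratio was 1.21 and 1.47 without NAEK and 1.23 and 1.34 with it. These transgenic values overlapped, with a log2 NAEK change of -0.05 (SE 0.31, limma adjusted p = 0.984).

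ENST00000511473, with 120 nt of coding and 846 nt of extended sequence, had ratios of 3.51 and 2.53 in HEK293T cells without NAEK and 4.36 and 3.06 with it. In transgenic cells they were 2.54 and 2.43 without NAEK and 2.71 and 2.02 with it, which overlap (log2 NAEK change -0.08, SE 0.33, limma adjusted p = 0.973). ENST00000461548, whose extension is 63 nt, had the steepest step among the deepest transcripts. Coding density there was 54.3 to 80.4 RPKM and first extended density 592.6 to 1182 RPKM over the 8 libraries, a ratio of 9.27 to 20.97. With NAEK the ratio was 11.7 and 20.97 in transgenic cells, around the 14.0 and 19.4 without it.

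The other 4 of the 8 most deeply covered transcripts were ENST00000582050, ENST00000494361, ENST00000517603 and ENST00000596995, with mean ratios of 1.60, 1.17, 3.47 and 5.38 in transgenic cells without NAEK. In the presence of NAEK these were 2.10, 1.00, 1.77 and 5.95. ENST00000494361 had 3 libraries below 1, at 0.933, 0.976 and 0.955. In the first 3, transgenic libraries with and without NAEK did not overlap. Such separation was common: of all 7801 regions tested, 23.5% had both libraries with NAEK above and 15.5% had both below. ENST00000582050 had 1.77 and 1.43 without NAEK and 2.21 and 1.995 with it, and ENST00000517603 had 3.09 and 3.84 without and 1.65 and 1.90 with it. ENST00000494361 had 1.13 and 1.21 without and 1.05 and 0.955 with it. These 3 did not pass the test of the NAEK change (limma adjusted p = 0.729 for ENST00000582050, 0.506 for ENST00000517603 and 0.926 for ENST00000494361). ENST00000596995 had too few coding reads to be tested.

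**Figure D2:**
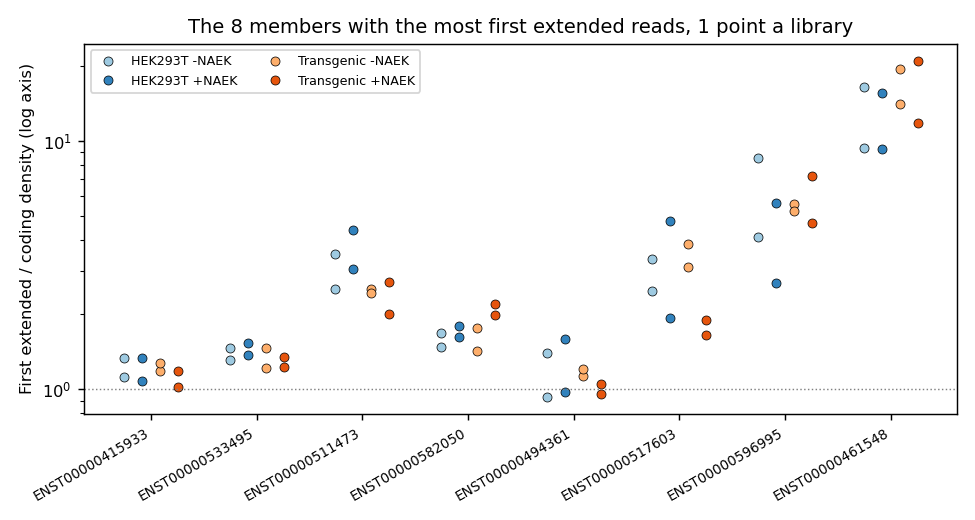
Ratio of first extended to coding density (log axis) of the 8 decay targets with the most first extended reads, 1 point per library, coloured by group. ENST00000415933 stays between 1.02 and 1.34 and ENST00000461548 between 9.27 and 20.97 in all libraries.

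Whether NAEK opened these stop codons was asked in transgenic cells, where a loaded amber tRNA can be present. Which of them are UAG is not known here. Sums and medians over all transcripts can therefore mix stop codons that this tRNA reads with others, and dilute a change confined to UAG. Tests ran on log2 values after adding 1 RPKM, in limma over the whole table, with adjustment over all regions tested. To be tested, a region needed 10 or more first extended reads over 8 libraries and coding reads averaging 50 or more. That admitted 7801 regions, 1073 of them from the 1461 decay targets, and left out 388. First extended density rose with NAEK in 0 of the 1073, against 1.6% of all regions tested, and fell in 1, against 0.141% (limma, adjusted p under 0.05). At an unadjusted p under 0.05 there were 19 higher and 29 lower, together 4.47% of the 1073, against 12.5% of all regions. On simulated libraries of all 7801 first extended regions this test missed most changed regions, so single changes can be missed here. The decay targets, which held more reads than all regions, were not simulated separately. Limma's voom on reads recovered from the RPKM called 0 higher and 2 lower of the 1073, against 267 higher and 7 lower of all 7801 regions.

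The ratio gave the same picture. In transgenic cells it changed with NAEK in 0 of the 1073 by limma, against 0.0128% of all regions. At an unadjusted p under 0.05 it was higher in 19 and lower in 24, 4.01% together, against 11.5% of all regions. The median log2 change was -0.00 over the 1073 decay targets and 0.06 over all 7801 regions. Both libraries with NAEK lay above both libraries without it in 183 decay targets (17.1%), where all regions gave 23.5%. They lay below in 193 (18.0%), where all regions gave 15.5%. Tested decay targets had a smaller SE of the change than all regions, with a median of 0.45 against 0.55 on the log2 scale, and more first extended reads over 8 libraries, with a median of 133 against 29.

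Summed over the 1461 transcripts, first extended reads were 25.48 and 25.45% of coding reads in transgenic libraries without NAEK and 25.37 and 25.59% with it. The group means were 25.46 ± 0.0237% and 25.48 ± 0.154% (SD, n = 2), and the libraries overlapped. The difference of 0.014 percentage points was below the SD between replicates of 0.110 percentage points. In HEK293T cells the share was 25.30 and 25.40% without NAEK and 25.36 and 25.15% with it. Coding density changed with NAEK in 0 of the 1461 transcripts in transgenic cells, against 0% of 46156 coding regions tested. At an unadjusted p under 0.05 it was higher in 76 and lower in 63, 9.51% against 5.93% of all coding regions. Voom called 0 of the 1461, against 1 higher and 8 lower of all 46156 coding regions.

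**Figure D3:**
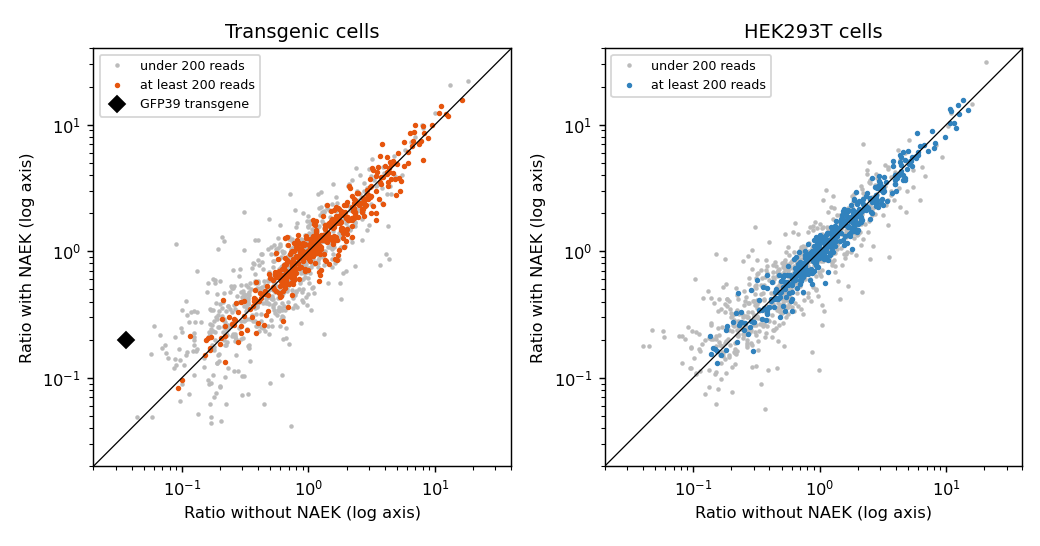
Ratio with NAEK against ratio without NAEK (log axes, means of 2 libraries) for the tested decay targets with a ratio above 0 in both groups, in transgenic (left) and HEK293T cells (right). Coloured points have at least 200 first extended reads, grey points fewer, and the line marks equality. The GFP39 transgene (black diamond) goes from 0.0364 to 0.1997, while the decay targets lie along the line in both cell lines.

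For the 428 tested transcripts with at least 200 first extended reads the changes were narrow. The interquartile range of log2 NAEK changes of the ratio was -0.21 to 0.19 in transgenic cells, and all lay between -1.12 and 0.99. In HEK293T cells the interquartile range was -0.16 to 0.18. The median size of the change was 0.20 in transgenic and 0.17 in HEK293T cells, while replicates of one group differed by a median of 0.29 to 0.32. The change compares means of 2 libraries and the replicate difference compares single libraries. Averaging alone therefore makes the change the smaller value. In 270 of the 428 the 95% interval of the change in transgenic cells had an upper bound below a 2-fold rise, and in 425 below a 4-fold rise. Over all 1073 these were 489 and 910. Across the 1073, log2 ratios without and with NAEK correlated with Pearson's r = 0.86 in transgenic cells, as means of 2 libraries. Single replicate libraries correlated with 0.78 and 0.79, and averaging alone raises the first value. All points of a correlation share their libraries.

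In a single transcript, a gain the size of that of the GFP39 reporter would be hard to see. The reporter's ratio went from 0.0364 to 0.1997, a gain of 0.163. Added to the median ratio of 0.744, that gain is 0.29 on the log2 scale, below the median SE of 0.45, and added to a ratio of 2.0 it is 0.11. Added to a ratio of 0.10, it is 1.40. Over the 428 transcripts with at least 200 first extended reads, the ratio with NAEK minus that without had a median of -0.01 and quartiles of -0.17 and 0.13.

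Transcripts nearest the threshold, where an added gain weighs most, had the highest median change. With a HEK293T ratio between 0.1 and 0.2, the median ratio of 140 transcripts in transgenic cells was 0.128 without NAEK and 0.156 when it was added. The median log2 change over the 73 tested was 0.16 in transgenic and 0.12 in HEK293T cells, with a median SE of 0.54 for a single transcript. Between 0.2 and 0.5 the medians were 0.07 in transgenic and 0.02 in HEK293T cells. They were -0.02 and 0.02 between 0.5 and 1, -0.03 and -0.02 between 1 and 2, and -0.09 and 0.01 at 2 and above. The order of the classes was not tested.

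**Figure D4:**
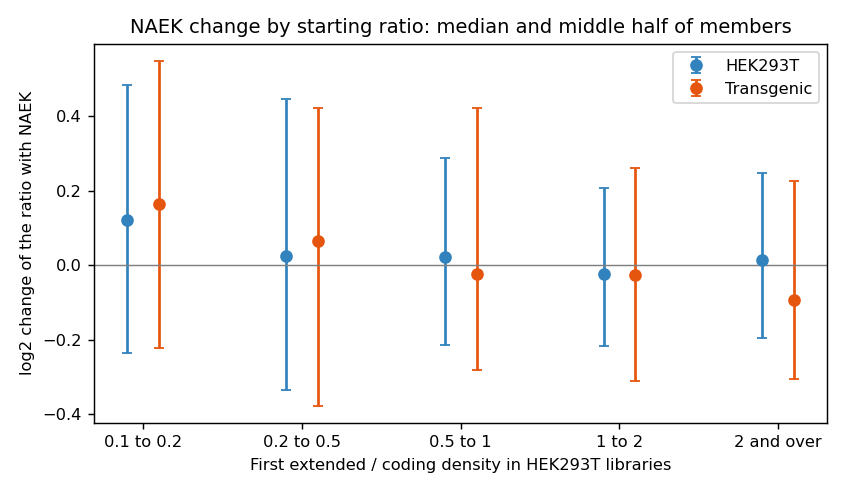
Log2 change of the ratio with NAEK in HEK293T (blue) and transgenic cells (orange), by the ratio in HEK293T libraries. Points are medians over the tested decay targets of a class and bars span the interquartile range. Class medians run from 0.16 down to -0.09 in transgenic cells, and all bars cross 0.

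Single transcripts at the ends of the range did not pass either. Among those with at least 200 first extended reads, the largest positive changes belonged to ENST00000526248 and ENST00000509784. The ratio of ENST00000526248, with an extension of 18 nt, was 0.795 and 0.536 without NAEK and 1.38 and 1.24 with it in transgenic cells, without overlap. In HEK293T libraries it was 1.23 and 0.547 without NAEK and 1.07 and 0.351 with it, so the transgenic values with NAEK lay near one of 2 widely spread HEK293T libraries. Its log2 change was 0.99 (SE 0.64, limma adjusted p = 0.661).

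ENST00000509784 had an extension of 369 nt, with 118 and 117 reads in transgenic libraries lacking NAEK and 134 and 103 in those given it. Its ratio was 0.715 and 0.590 without NAEK and 1.45 and 1.15 with it, a log2 change of 0.95 (SE 0.38, limma adjusted p = 0.398). Most of that difference lay in the coding region, at -0.70 on the log2 scale, against 0.25 in the extension, and neither passed. The 5 largest positive changes ran from 0.83 to 0.99.

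The largest negative changes belonged to ENST00000550880 and ENST00000601306. ENST00000550880, with an extension of 150 nt, had ratios of 0.552 and 0.720 without NAEK and 0.325 and 0.246 with it (log2 -1.12, SE 0.40, limma adjusted p = 0.323). ENST00000601306 had an extension of 9 nt, with 81 and 93 reads when NAEK was absent and 39 and 30 when it was present. Its ratio was 1.11 and 1.31 without NAEK and 0.562 and 0.592 with it (log2 -1.06, SE 0.35, limma adjusted p = 0.275). In both, the groups of transgenic libraries did not overlap. The 5 largest negative changes ran from -1.12 to -0.94.

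The single call in first extended density rested on a few reads. ENST00000577910, with an extension of 12 nt, had 2 and 3 reads in transgenic libraries without NAEK and 0 with it (limma adjusted p = 0.0354), and 3, 2, 2 and 2 reads in HEK293T libraries. These numbers are at or under the floor of 3 reads per library, so no fold is given. The call passed under 3 of 15 alternative settings and was lost when any 1 of the 8 libraries was left out. Adjusted p ran from 0.0248 to 0.363 over the 15.

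In HEK293T cells, which lack the tRNA, the ratio changed with NAEK in 0 of the 1073 by limma, against 0% of all regions, with 13 higher and 11 lower at an unadjusted p under 0.05, where all regions gave 3.44%. These libraries chose the transcripts, but the choice averages the groups with and without NAEK. The median log2 change was 0.01. The NAEK effects of both lines were compared directly by the interaction, which passed in 0 of the 1073, against 0% of all regions, with 12 higher and 13 lower at an unadjusted p under 0.05, where all regions gave 8%.

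Footprints were also found in the second extended region, read here as the stretch after the next stop codon. Neither region is defined in the sources used here. Of the 1461 transcripts, 1258 held reads there, and in 614 that region was at least as dense as the first. Among the 490 with at least 200 first extended reads, 136 did so, and the median of second over first extended density was 0.389. The median differed between classes of first extended length, a difference that was not tested. Where it was 61 to 120 nt long, the median was 1.04, and where it was longer than 120 nt, 0.0822. Between 1 and 15, 16 and 30, and 31 and 60 nt the medians were 0.811, 1.03 and 0.875. These class medians cover all 1461 transcripts, and the 203 without second extended reads count as 0 in them. A low class median can therefore reflect missing second extended reads as well as a lower density.

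The largest values of second over first extended density among transcripts with at least 200 first extended reads were 12.5 in ENST00000509531, 7.60 in ENST00000455250 and 6.57 in ENST00000498765. The second region was 3, 21 and 54 nt long there and held 64, 1483 and 4385 reads. With fewer first extended reads, higher values occurred, such as 22.4 in ENST00000304834 on 54 first and 656 second extended reads, which was named after its value was seen. In ENST00000498765, which rested on 1333 first and 4385 second extended reads, the ratio of the first region in transgenic cells was 0.368 ± 0.0277 (SD, n = 2) without NAEK and 0.370 ± 0.119 (SD, n = 2) after its addition. It differed by less than the spread between replicates.

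With NAEK, second extended density in transgenic cells rose in 0 and fell in 1 of 861 decay targets tested, each against 0.0309% of all 3238 second extended regions (limma). At an unadjusted p under 0.05 there were 27 higher and 27 lower, where 6.92% of all regions passed in either direction, and voom called 0. The fall was in ENST00000589468, with a second region of 9 nt and 3 and 5 reads without NAEK against 0 in both libraries with it (limma adjusted p = 0.0141). It was lost without either transgenic library lacking NAEK and without 3 other libraries, and adjusted p ran from 0.00307 to 0.583 over 15 alternative settings. Its first extended region, 99 nt long, held 135 and 141 reads when NAEK was absent and 138 and 109 when it was present, and its ratio was 0.959 and 1.11 against 1.25 and 1.24 (limma adjusted p = 0.871).

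Summed over the 1461 transcripts, second extended reads were 17.47 and 18.08% of coding reads in transgenic libraries without NAEK and 17.53 and 17.58% with it, which overlap. In HEK293T libraries the share was 16.68 and 17.11% without NAEK and 16.98 and 16.94% with it, also overlapping.

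**Figure D5:**
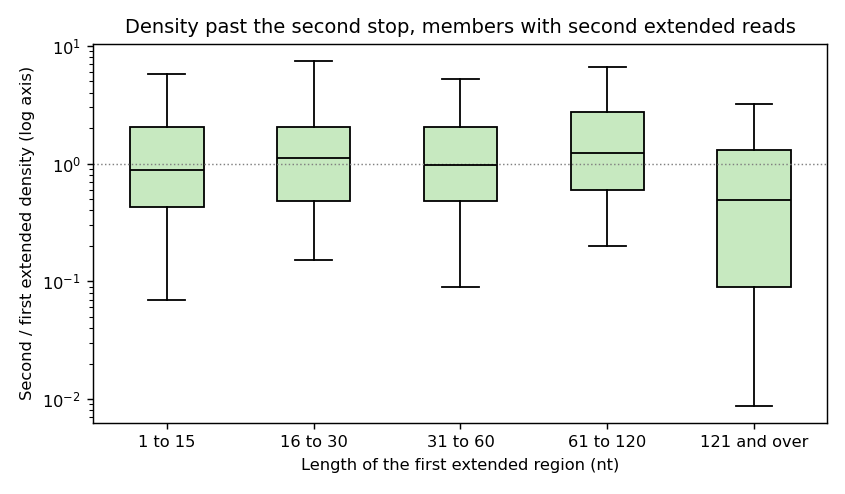
Second over first extended density (log axis) by length of the first extended region, over the 1258 decay targets with second extended reads. Boxes give the interquartile range with the median, and whiskers the 5th to 95th percentile. Medians lie near 1 up to 120 nt and lower for longer first regions.

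Whether the reads belong to other isoforms could be examined only through the reads themselves. No transcript in the table with at least 100 reads in a region had the same reads as another in all 8 libraries, for 45803 coding, 2578 first extended and 1783 second extended regions. Equal reads would appear only if a shared read were counted for each transcript it fits. Their absence therefore does not tell whether isoforms share reads. The 3 regions of all transcripts together held 91.3 to 91.7% of each library's total. Some of the decay targets came in near copies. Among the 739 with at least 100 first extended reads, 32 pairs, from 60 transcripts, had the same lengths of all 3 regions and coding and first extended reads that agreed within 10%. ENST00000532567 and ENST00000631368, the pair with the most first extended reads, had coding regions of 120 nt with 6898 and 6938 reads and extensions of 291 nt with 7266 and 7320 reads. The sources used here do not say how reads that fit several transcripts were assigned. The part of reads from other isoforms in the ratios was not tested.

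Beside the 1461 stand 1061 decay targets with the same coding density but ratios below 0.10, and 2913 protein-coding transcripts with ratios of at least 0.10. Coding regions had median lengths of 294 and 780 nt in these sets, and first extended regions of 63 and 24 nt. Of protein-coding transcripts with at least 10 RPKM, 22.4% reached a ratio of 0.10. In transgenic cells, the median log2 NAEK change of the ratio was 0.13 over 157 tested low decay targets and -0.01 over 2035 tested dense protein-coding transcripts, against -0.00 over the 1073. First extended density rose in 1 and fell in 0 of the 157 low decay targets. It rose in 4 and fell in 7 of the 2035 dense protein-coding transcripts. Of all regions tested, 1.6% rose and 0.141% fell (limma, adjusted p under 0.05). Differences between these sets were not tested. The libraries are of bulk cells and measure no mRNA, so fewer cells with a transcript, less of it per cell and fewer ribosomes on it cannot be told apart.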

How the data were processed

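Per the labels' protocols, the TruSeq Ribo Profile kit was used. The submitters' processing notes name Bowtie 1.2.2 and hg38. The authors deposited RPKM per transcript in the coding, first and second extended regions, 1 table per group, per the file headers. The sources used here give neither the annotation, the read lengths kept nor the handling of multi-mapping reads.

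The fixed design allowed for counts or RPKM. The values are RPKM, so the test was limma 3.58.1 (R 4.3.3) on log2(RPKM + 1), or the difference of these values for the ratio, with a variance trend, group as factor, all 8 libraries and Benjamini-Hochberg adjustment at 0.05. Coding regions needed a mean of 1 RPKM. Fold changes are on this scale, which understates changes of low values. Whole reads were recovered from the RPKM: values are multiples of 1 read's worth, and the synthetase entry of 1290 nt fixes each total. With whole lengths required, 100.0% of values above 0 came out whole within 0.01 reads. Recovered lengths are the shortest possible. Both steps were tested on simulated data, the limma test for first extended density only. There the limma test missed most changed regions, strong changes included, and some of its calls fell on unchanged regions. A count of 0 calls is therefore no sign that nothing changed. The floor is 3 reads, which covers counting error only (PCR copies are not independent molecules). Python 3.11.15, numpy 2.4.6, pandas 2.3.3 and matplotlib 3.10.9 did the rest.

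Members and lists were chosen with earlier results of these data known. Named transcripts are those called, the ends of the NAEK change with at least 200 reads (2 each way), the 8 deepest, the 5 highest ratios, the 3 on each side of the threshold and the 3 highest second over first densities with at least 200 first extended reads. Lists of decay factors, splicing factors, ribosomal proteins and other cell types' markers were not analysed here, since the tables pair no transcript with a gene. Whether replicates came from separate cultures is not in the labels. The p-values then reflect the spread between these libraries alone, possibly a technical one.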

Additional observations from a re-analysis of the deposited data

How the results depend on the processing

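No decay target rose in first extended density, ratio, coding or second extended density with NAEK in transgenic cells under any of the 15 or 16 alternatives run for each. The single call of lower first extended density became 0 with no read minimum, 0 when only the compared libraries were fitted, 0 with the replicate number as a block, 2 with a pseudocount of 5 and 2 under voom, and 0 to 2 when 1 library was left out. Calls in the ratio numbered 2 with a pseudocount of 0.1 and 1 without the variance trend, all lower. Of all 7801 regions, 16 were higher and 18 lower with that pseudocount, and 37 higher and 5 lower without the trend. Voom was not run for the ratio, and fitting only the compared libraries gives no interaction. The single call in second extended density became 2 with a pseudocount of 0.1, and 0 with a pseudocount of 5, with no minimum, with the stricter minimum, when only the compared libraries were fitted and under voom, and 0 to 3 when 1 library was left out. Over all second extended regions tested, alternatives called 0 to 2 higher and 0 to 5 lower. Calls in coding density, in the ratio of HEK293T cells and in the interaction stayed at 0 under the alternatives run. The median log2 change of -0.003 ran from -0.041 to 0.055 when 1 library was left out. The summed share differed by 0.014 percentage points, by -0.142 with a ratio threshold of 0.20, and by -0.094 to 0.123 when 1 library was left out. Leaving out 1 transcript of each near copy, chosen after seeing the data, gave -0.009 and -0.043. The cause of these shifts was not tested. Over all 7801 first extended regions, alternatives called 0 to 267 higher and 0 to 16 lower, against 125 and 11. Replicate numbers are shared by the groups, but deviations of same-numbered libraries correlated with r = 0.32 for HEK293T and 0.05 for transgenic coding density, and with 0.09 and 0.02 for the ratio, so the pairing was not used. Depth limits the thin regions: 124 of the 1461 held under 10 first extended reads and 296 a mean under 50 coding reads.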

Other observations

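Decay targets below the ratio threshold also held footprints further downstream. In the 1061 such transcripts, first extended reads were 0.23 to 0.33% of coding reads in the 8 libraries, while second extended reads were 5.28 to 6.43%. In the 1461 dense transcripts the shares were 25.15 to 25.59% in the first and 16.68 to 18.08% in the second region. The rule chose the sets by the first region only, and the second was not used in it. The difference of the second shares between the sets was noticed after the values were seen and was not tested.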
